A study of Homo sapiens with 20 samples.

Results

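The gene expression response to a CHK1 inhibitor given together with a dynamin inhibitor was compared with the sum of the responses to each drug alone, in cells of IMR-32, an established human neuroblastoma line with an amplified MYCN oncogene. The 16 libraries compared (of 20 in the series) fell into 4 groups of 4 libraries, each harvested 24 h after treatment: DMSO vehicle, Dyngo-4a at 1 µM, prexasertib at 2 nM, and prexasertib plus Dyngo-4a. The labels call the genotype of every library WT. The other group, Dyngo-4a at 2.26 µM, shared the estimate of the spread and is shown beside the results only. The sources used here do not give the doses within the combination, and the comparison takes them to be the 2 single doses. The labels do not say whether the 4 libraries of a group are separate cultures, and a p-value here measures their spread, which may be technical.

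The interaction of a gene was the difference of differences on the log2 scale: combination minus prexasertib minus 1 µM Dyngo-4a plus DMSO. A value of 0 means that the combination equalled the sum of the single effects on this scale, and a positive value that it lay above the sum. A gene is described as called where its p from the quasi-likelihood test of edgeR, adjusted across the 13729 genes tested (Benjamini-Hochberg), was under 0.05. Of these genes 39 were called in the interaction (0.284%), 37 above the sum (0.27%) and 2 below it (0.0146%). With the replicate number added to the model as a block, 167 were called. At an unadjusted p under 0.05 there were 527 genes above (3.84%) and 373 below (2.72%). Levels are given in CPM, counts relative to the TMM-scaled library total, values with ± beside a log2 difference are standard errors, and adjusted p-values are from that test.

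Prexasertib inhibits CHK1, the kinase that restrains origin firing and entry into mitosis while DNA is being copied. Without CHK1 activity, forks stall and are cut by nucleases such as MUS81 with its partner EME1, and cells can enter mitosis with incompletely copied DNA. Dyngo-4a blocks dynamins, the GTPases that pinch vesicles off the plasma membrane. By its title the series is about inhibiting CHK1 and MUS81 jointly, and the sources used here do not say how Dyngo-4a acts on MUS81. Genes that respond to DNA damage encode brakes on the cell cycle, repair proteins and inducers of apoptosis, while heat shock genes encode chaperones for unfolded proteins.

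Library totals ran from 3960885 to 6537843 counts, and a count of 0 allowed up to 0.459 to 0.757 CPM, counting error only. All 10 adrenergic neuroblast markers had a mean of at least 1 CPM over the 16 libraries, although TH had a median of 0.846 CPM. Their summed levels were 6610 to 7900 CPM, which bears on the labelled cell type. Of the markers of other cells, 6 of 10 mesenchymal (summed 284 to 377 CPM), 1 of 8 Schwann (2.73 to 11.1), 1 of 8 leukocyte, 1 of 7 glial and 0 of 6 endothelial genes had a mean of at least 1 CPM. The labels place all libraries in the same batch, yet on the second principal component replicates 1 and 3 lay on the positive side and replicates 2 and 4 on the negative side in each of the 4 groups. For that reason values within each of these subsets are given below. The nuclear RNA MALAT1 took 0.941% to 1.76% of the counts in DMSO, 1.18% to 2.08% with 1 µM Dyngo-4a, 1.04% to 1.73% with prexasertib and 1.74% to 2.92% in the combination, and its part in the results was not tested.

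The sequences that follow belong to the groups described below. The first is the promoter of HSPA1B, the heat shock gene with the lowest p, whose 150 bases before the start (RefSeq, GRCh38.p14, plus strand, chr6:31827588-31827737) hold 1 match, in capitals, to the heat shock element GAANNTTC, beginning 105 bases before the start:
HSPA1B: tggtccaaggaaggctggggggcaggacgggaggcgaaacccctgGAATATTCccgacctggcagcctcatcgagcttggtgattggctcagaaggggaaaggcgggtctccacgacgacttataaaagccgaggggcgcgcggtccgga
That motif, searched on both strands of the 250 bases before the start, was found in 6 of the 18 heat shock list genes with a promoter in the table (33.3%) and in 5.85% of all 27305 promoters. DNAJB1, the other called heat shock gene, had 0 matches in this window.

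The second set comes from mitotic genes. The letters TTTGAA, the core of the cell cycle homology element of late cell cycle promoters, were found on either strand in 15 of 27 promoters of the mitosis list (55.6%) and in 13.6% of all promoters, a motif chosen after values were seen. Matches are in capitals (TTCAAA where on the opposite strand). Of the called genes shown, only TOP2A is on that list, and CDCA8 and GTSE1 were added from outside it. CEP70, a called centrosomal gene, is not shown. The promoters follow in 70 bases each (RefSeq, GRCh38.p14):
CDCA8, plus strand, chr1:37692446-37692515: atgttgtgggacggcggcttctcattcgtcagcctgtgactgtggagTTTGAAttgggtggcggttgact
GTSE1, plus strand, chr22:46296800-46296869: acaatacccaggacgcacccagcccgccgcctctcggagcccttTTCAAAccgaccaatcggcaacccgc
TOP2A, minus strand, chr17:40418027-40418096: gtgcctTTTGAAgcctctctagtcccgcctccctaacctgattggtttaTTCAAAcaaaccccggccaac
The first match began 23 bases before the start in CDCA8, 26 in GTSE1 and 194 in TOP2A.

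The third set is of the 4 called histone genes, shown because the assay primes on poly(A) tails. Replication-dependent histone messenger RNAs normally end just after a stem-loop and carry no poly(A) tail. The stems, 6 paired bases on each side of a 4-base loop, are in capitals (GENCODE 29 transcripts, GRCh38):
H4C5: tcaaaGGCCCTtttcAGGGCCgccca
H2BC8: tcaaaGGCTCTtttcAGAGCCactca
H2BC5: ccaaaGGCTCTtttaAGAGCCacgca
H2BC21: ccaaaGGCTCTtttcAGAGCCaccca
Such a hairpin, a perfect stem beginning GG around a loop beginning TTT, was found in 21 of the 43 tested histone genes (48.8%) and in 57 of 19684 protein-coding genes (0.29%). The annotated transcript went on for 1022 bases past the stem in H4C5, 1059 in H2BC8 and 1729 in H2BC21, and for 39 in H2BC5. Upstream, the octamer ATTTGCAT, known from H2B promoters and also chosen after values were seen, was found in 11 of 15 tested H2B genes (73.3%), H2BC8 and H2BC21 among them, and in 1.66% of all promoters.

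The fourth set is of U1 small nuclear RNA, which pairs with the junction of an exon and the following intron through the bases in capitals. The 2 called U1 gene copies are set beside the U1 gene RNU1-1 over the first 30 bases:
RNU1-1: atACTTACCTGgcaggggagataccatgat
RNVU1-31: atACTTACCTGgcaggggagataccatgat
RNVU1-28: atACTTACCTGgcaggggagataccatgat
These 30 bases were identical, and over all 164 bases RNVU1-31 differed from RNU1-1 at 2 positions and RNVU1-28 at 1, so the assignment of reads to one copy is uncertain. The called U6 copy RNU6-11P differed from RNU6-1 at 2 of 107 bases.

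Most of the called genes had small values with either drug alone. In 26 of the 39 both single effects were under 0.5 in size on the log2 scale, and the size of the interaction ran from 0.55 to 3.37 with a median of 1.09, at least 2-fold in 22 genes. The combination lay beyond a sum of the same sign in 27 of the 37 genes above the sum, and it had the opposite sign to the sum in the other 10 and in both genes below. Prexasertib against DMSO gave 0 called genes (0%), with 518 at an unadjusted p under 0.05, 12 called without a low-count filter, 6 by DESeq2 and 23 with a block for replicate number. Against DMSO, 1 µM Dyngo-4a gave 36 (0.262%; 260 with the block), of which METTL7A and TXNIP were called in the interaction. Combination against DMSO gave 865 (6.3%), 38 of the 39 among them, the exception being CELF3. At 2.26 µM Dyngo-4a alone 3456 of the 13729 genes were called against DMSO, 1715 higher and 1741 lower. Among the 39 genes 20 were called higher and 5 lower at that dose. That comparison shares the DMSO libraries with the interaction, so these counts only describe the called genes. STK17A measured 1.67 at that dose and 2.09 in the combination, SESN2 1.87 and 1.64, and KCNK2 -0.63 and -0.49. HSPA1B and DNAJB1 went the other way, as given below.

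**Figure D1:**
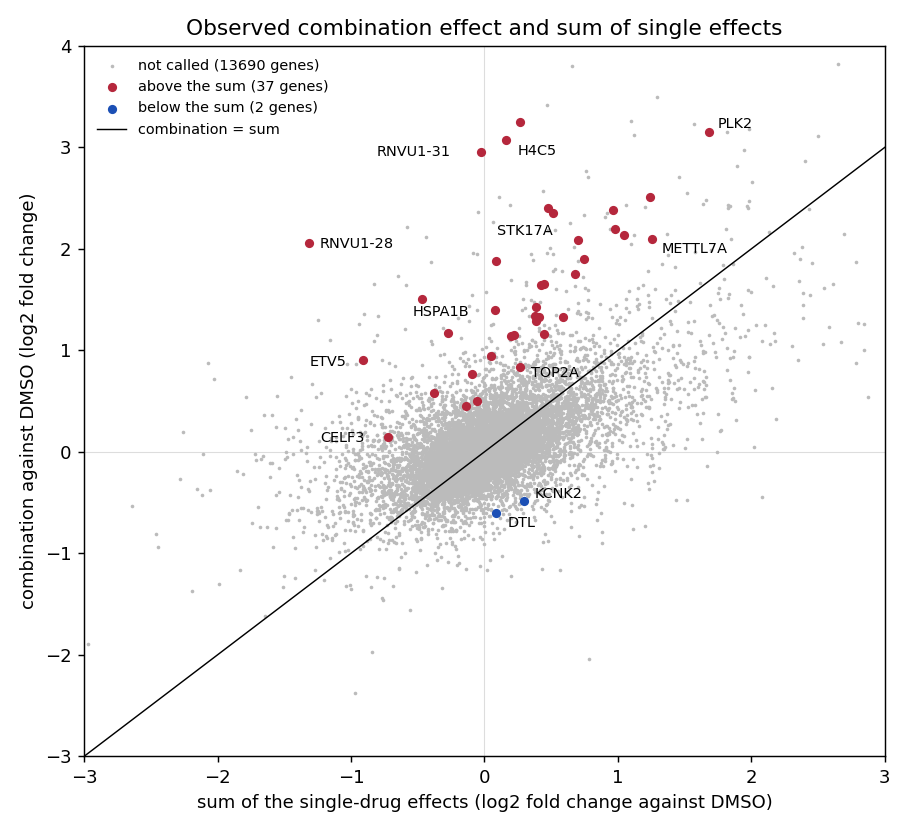
Log2 fold change of the combination against DMSO (vertical) against the sum of both single-drug log2 fold changes (horizontal) for each tested gene, where points on the line equal the sum. The 37 called genes above the sum lie over the line, mostly near a sum of 0, and DTL and KCNK2 lie under it; 12 of 13729 genes lie outside the plotted range.

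Seen as the effect of prexasertib in the presence of Dyngo-4a, combination against 1 µM Dyngo-4a, 528 genes were called (3.85%; 1149 with the block). All 39 were among them. Seen as the effect of Dyngo-4a in the presence of prexasertib, combination against prexasertib, 472 were called (3.44%; 1374 with the block), 37 of the 39 among them. These comparisons share libraries with the interaction, so the counts describe the called genes and do not add to them. In 35 of the 37 genes above the sum, the 4 combination libraries lay above all 12 others, as they did in 2.08% of tested genes, and in both genes below the sum they lay under all 12 (1.23% of tested genes). The genes were chosen on these same libraries, so this ranking follows largely from the choice and adds no support.

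**Figure D2:**
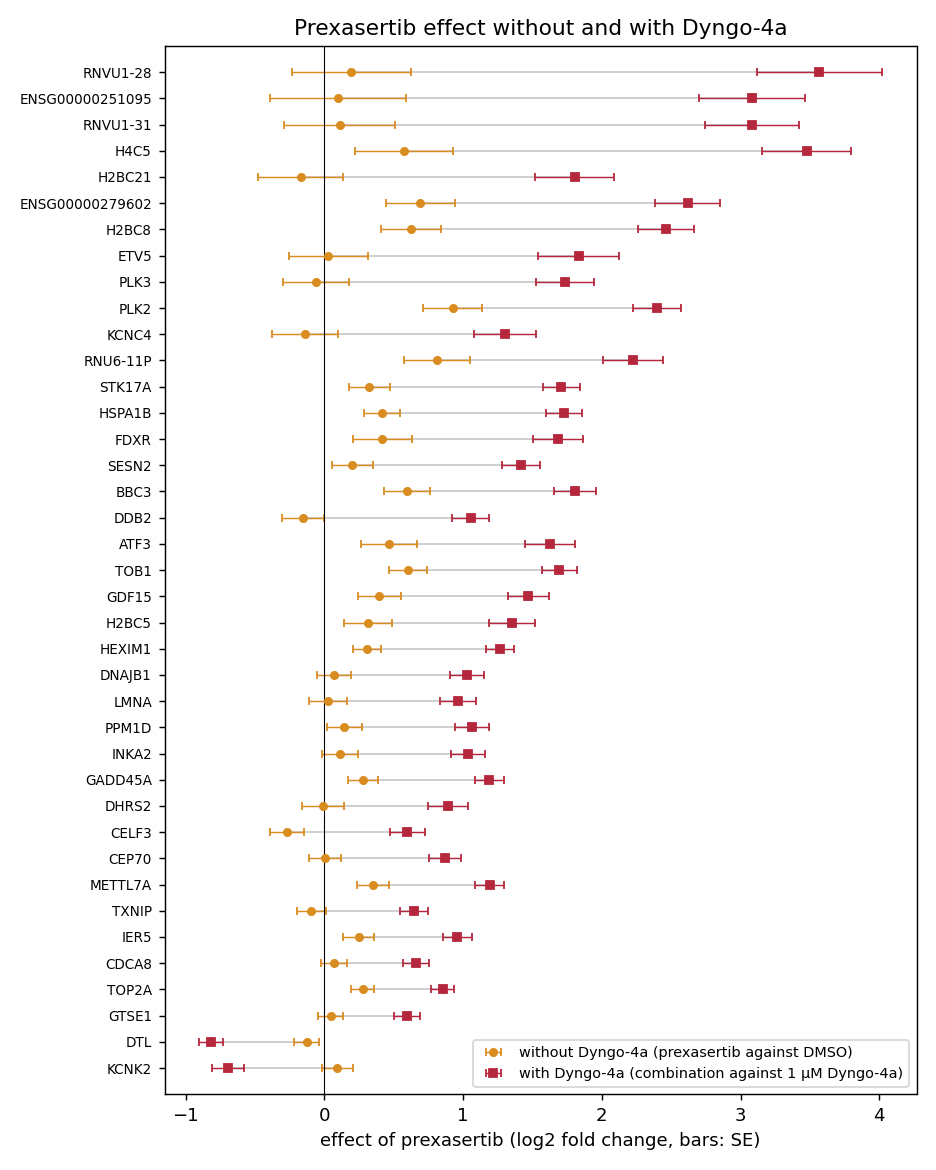
Effect of prexasertib as log2 fold change with its standard error, without Dyngo-4a (circles, against DMSO) and with Dyngo-4a (squares, combination against 1 µM Dyngo-4a), for the 39 called genes ordered by their interaction. Circles lie between -0.27 and 0.92, while the squares of the 37 genes above the sum lie between 0.60 and 3.57.

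The genes above the sum included several of cell cycle arrest and DNA damage. STK17A, a serine/threonine kinase of the death-associated protein kinase family (chromosome 7, 43582758 to 43650713, GRCh38), had the lowest p of all genes. It measured 12.6, 13.0, 15.5 and 13.6 CPM in DMSO replicates 1 to 4, 17.0, 19.7, 14.8 and 19.3 with 1 µM Dyngo-4a, 20.5, 17.7, 14.7 and 15.8 with prexasertib and 59.9, 50.8, 67.4 and 55.5 in the combination. Each combination library held more than all 12 others, while both single-drug groups overlapped DMSO. The single effects summed to 0.70, the combination measured 2.09 ± 0.14, and the interaction was 1.39 ± 0.20 (adjusted p = 0.000223), a 2.61-fold excess over the sum.

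GADD45A, a stress sensor that restrains CDK1 and takes part in DNA repair (chromosome 1, 67685061 to 67688338), measured 109, 121, 113 and 110.1 CPM in DMSO, 108, 128, 122 and 128 with Dyngo-4a, 119.7, 154, 149 and 127 with prexasertib and 267, 276, 294 and 273 in the combination. Its levels with Dyngo-4a overlapped those in DMSO, and the combination stood clear of all groups. Here the sum was 0.38 and the interaction 0.91 ± 0.15 (adjusted p = 0.00128). PLK3 and PLK2, polo-like kinases induced by stress, were called as well. PLK3 (chromosome 1, 44800225 to 44805990) measured 8.18, 5.26, 5.64 and 6.88 CPM in DMSO, 8.63, 8.68, 7.84 and 3.998 with Dyngo-4a, 6.14, 4.84, 7.92 and 6.27 with prexasertib and 27.5, 26.7, 18.6 and 23.9 in the combination. Its single effects, 0.15 and -0.06, were near 0, against an interaction of 1.79 ± 0.31 (adjusted p = 0.00211). PLK2 (chromosome 5, 58453982 to 58460260) measured 3.62, 7.27, 5.64 and 5.76, 10.4, 8.99, 6.75 and 11.1, 12.5, 9.50, 8.91 and 10.97 and 53.7, 41.7, 52.4 and 49.5 CPM in the same order of groups. Both drugs alone gave values above DMSO for PLK2 (0.76 and 0.92, not called), and the combination exceeded their sum by 1.47 ± 0.28 (adjusted p = 0.0047).

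DDB2, which recognises ultraviolet lesions in DNA (chromosome 11, 47214465 to 47239240), measured 18.1, 14.04, 16.5 and 17.1 CPM in DMSO, 27.8, 24.8, 26.1 and 21.6 with Dyngo-4a, 13.9, 16.4, 12.3 and 16.6 with prexasertib and 63.0, 51.2, 47.9 and 46.2 in the combination. The Dyngo-4a libraries all lay above DMSO and the prexasertib libraries overlapped it. The DDB2 interaction was 1.21 ± 0.20 (adjusted p = 0.00128). BBC3, which encodes the pro-apoptotic protein PUMA (chromosome 19, 47220822 to 47232766), measured 21.3, 30.6, 17.5 and 29.3 CPM in DMSO, 31.9, 38.3, 27.7 and 29.99 with Dyngo-4a, 43.2, 43.8, 29.9 and 32.4 with prexasertib and 119, 136, 113 and 83.6 in the combination. The groups overlapped apart from the combination, which lay 1.21 ± 0.22 above the sum (adjusted p = 0.00474). Among 13 tested BCL2 family genes BBC3 was the called member, with 2 above and 0 below at an unadjusted p under 0.05. In that list 7 values were positive and 6 negative, and the median was 0.015. Also called above the sum were PPM1D, a phosphatase that switches the damage response off (0.92), TOB1, an antiproliferative protein (1.09), and FDXR, a mitochondrial ferredoxin reductase (1.26). SESN2, a sestrin that restrains mTORC1 (1.22), and GDF15, a secreted stress cytokine (1.07), were called too and are counted below in the list of ATF4 targets and amino acid stress.

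Of the 19 tested genes of the arrest list 4 were called above the sum (GADD45A, PLK3, PLK2 and FDXR) and 0 below, 13 had an unadjusted p under 0.05 above the sum and 0 below, and all 19 values were positive under each of the 3 scalings. The list's median interaction was 0.58, beside 0.00 over all tested genes. CDKN1A, the cyclin-dependent kinase inhibitor of this list, was not called. It measured 55.0, 55.9, 37.5 and 67.6 CPM in DMSO, 169.8, 129, 80.2 and 113 with Dyngo-4a, 95.4, 87.8, 79.2 and 105 with prexasertib and 444, 449.7, 385 and 421 in the combination. All 4 groups were apart for CDKN1A except that the Dyngo-4a and prexasertib libraries overlapped. The CDKN1A interaction was 1.03 ± 0.26 (95% interval 0.48 to 1.57, adjusted p = 0.143). It was called by DESeq2 (adjusted p = 0.00496), by limma-voom (0.0264), in edgeR without a low-count filter (7.8e-05), with the block (0.00156), and without DMSO replicate 3 (0.0169) or low-dose replicate 1 (0.00648). In several other members the sum already came close to the combination: SESN1 had a sum of 1.58 and an interaction of 0.40 (95% interval -0.22 to 1.01), and EDA2R had 1.70 and 0.29 (-0.22 to 0.79). Neither of these was called.

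**Figure D3:**
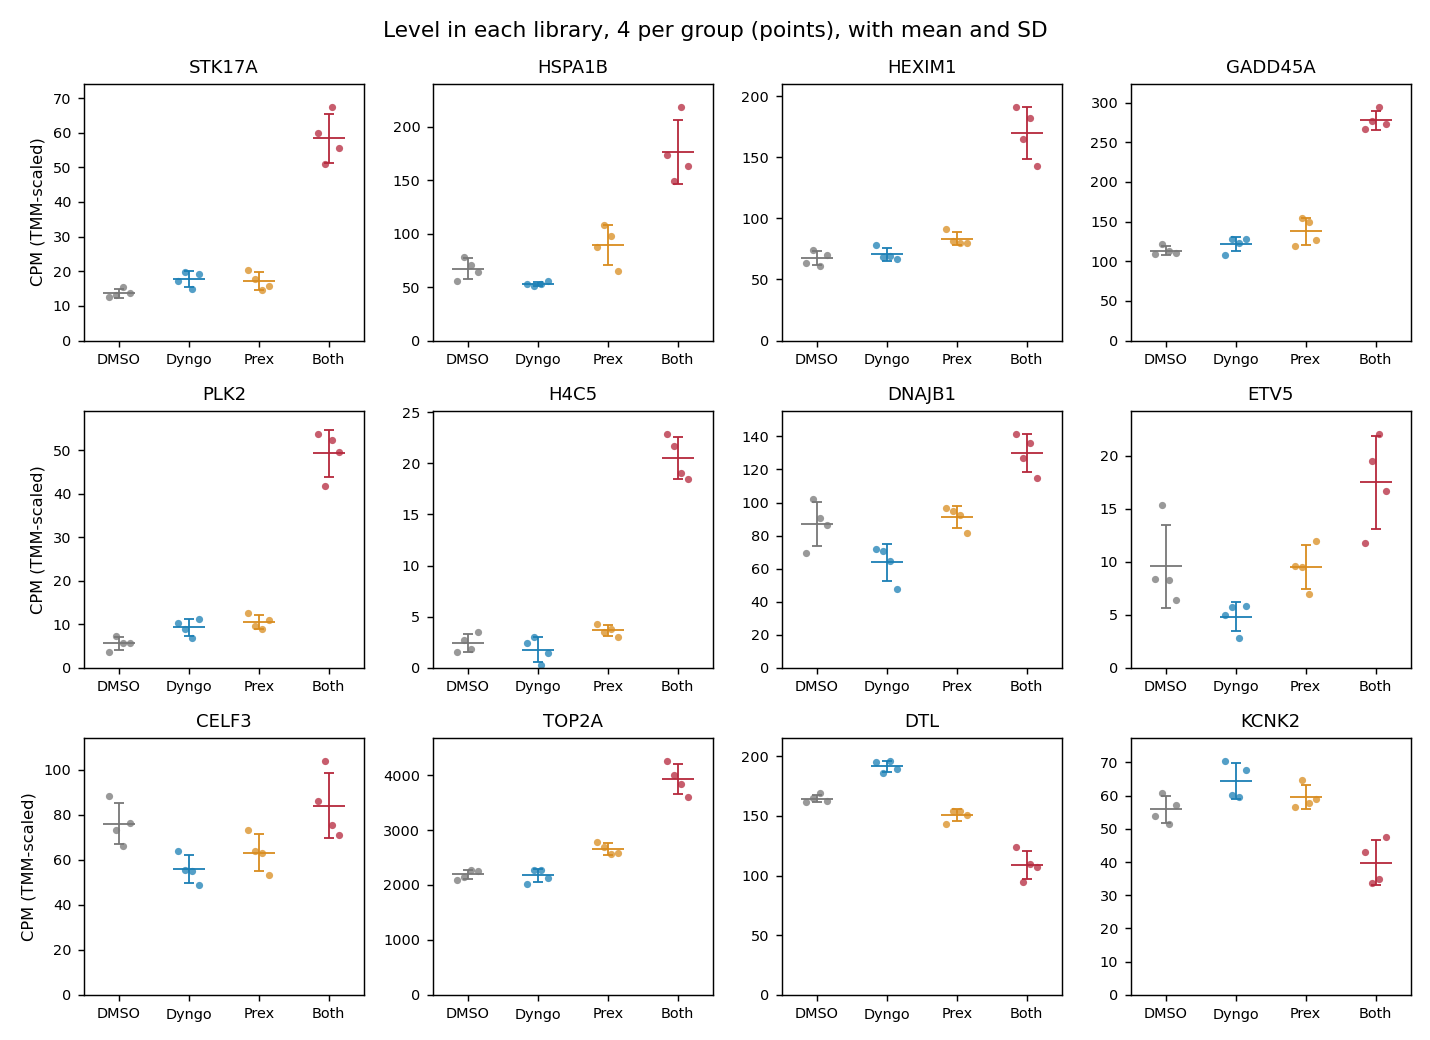
Level in CPM (linear axes from 0) of 12 called genes in each library of DMSO, 1 µM Dyngo-4a (Dyngo), 2 nM prexasertib (Prex) and the combination (Both), with replicates 1 to 4 from left to right, group means (bars) and SD (whiskers). The combination libraries stand apart from all others in these genes except ETV5 and CELF3, and lie under them in DTL and KCNK2.

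HSPA1B, an inducible chaperone of the HSP70 family whose promoter is printed above (chromosome 6, 31827735 to 31830255), measured 55.4, 78.2, 70.7 and 64.2 CPM in DMSO, 53.3, 51.0, 52.9 and 55.3 with Dyngo-4a, 87.2, 108, 97.5 and 65.0 with prexasertib and 174, 149, 219 and 164 in the combination. Dyngo-4a libraries lay under all DMSO libraries, prexasertib libraries overlapped DMSO, and the combination lay above every other library. The single effects of -0.33 and 0.42 nearly cancelled, and the combination exceeded their sum by 1.31 ± 0.18 (adjusted p = 0.000223). The near-identical copy HSPA1A was not among the tested genes, so how reads were split between the copies is uncertain. DNAJB1, an HSP40 co-chaperone (chromosome 19, 14514770 to 14529770), measured 69.5, 102, 90.5 and 86.3 CPM in DMSO, 72.1, 70.8, 64.5 and 47.4 with Dyngo-4a, 96.4, 94.8, 92.7 and 81.3 with prexasertib and 141, 127, 136 and 115 in the combination. Its direction turned: the sum was -0.38, the combination 0.58 ± 0.12 (adjusted p = 0.00155), and the interaction 0.96 ± 0.17 (adjusted p = 0.00287). At 2.26 µM Dyngo-4a alone HSPA1B measured -1.57 and DNAJB1 -0.96 against DMSO, both called and both opposite in sign to the combination.

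Most other heat shock genes lay closer to the sum. Of its 19 tested members HSPA1B and DNAJB1 were called above the sum and 0 below, 4 had an unadjusted p under 0.05 above and 0 below, and the median interaction was 0.11. HSPA4L, an HSP110 relative, measured 0.49 (adjusted p = 0.26). Of 13 immediate early genes IER5 and ATF3 were called above the sum and 0 below, with 7 above and 0 below at an unadjusted p under 0.05 and a median of 0.71. IER5, a regulator of heat shock factor, had a sum of 0.45 and an interaction of 0.71 ± 0.15 (adjusted p = 0.018), and ATF3, a stress-induced transcription factor, 0.75 and 1.16 ± 0.27 (adjusted p = 0.0462). JUN, a subunit of AP-1, measured 0.79 and was not called (adjusted p = 0.167). In the list of ATF4 targets and amino acid stress, SESN2 and GDF15 were the called members of 29, 7 lay above and 0 below at an unadjusted p under 0.05, and the median was 0.17. The ATF4 composite element TGATGNAA had 0 matches in the promoters of SESN2 and GDF15 and was found in 2 of 24 promoters of that list (8.33%) and in 3.19% of all.

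HEXIM1, the inhibitor of the elongation kinase P-TEFb (chromosome 17, 45148502 to 45152101), had the third-lowest p. It measured 63.8, 74.0, 61.5 and 70.1 CPM in DMSO, 78.6, 68.2, 69.1 and 66.9 with Dyngo-4a, 91.3, 81.8, 80.2 and 80.1 with prexasertib and 191, 165, 182 and 143 in the combination. Prexasertib libraries lay above all DMSO libraries, Dyngo-4a libraries overlapped DMSO, and the combination lay clear of both. The interaction was 0.96 ± 0.14 (adjusted p = 0.000335), and at 2.26 µM Dyngo-4a HEXIM1 measured 0.26 and was not called (adjusted p = 0.0612). TXNIP, a binding partner of thioredoxin that limits glucose uptake, was already called with Dyngo-4a alone. TXNIP rose by 0.68 ± 0.10 at 1 µM (adjusted p = 0.000266) and 3.06 ± 0.11 at 2.26 µM (adjusted p = 8.62e-23), measured -0.09 with prexasertib, and exceeded the sum by 0.74 ± 0.15 (adjusted p = 0.00801). METTL7A, a methyltransferase of lipid droplets and the endoplasmic reticulum, also rose with 1 µM Dyngo-4a (0.91 ± 0.11, adjusted p = 7.29e-06) and had an interaction of 0.84 ± 0.16 (adjusted p = 0.0036).

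Mitotic genes lay above the sum by small amounts. TOP2A, the topoisomerase that untangles sister chromatids (chromosome 17, 40388516 to 40417950), measured 2088, 2149, 2270.4 and 2256 CPM in DMSO, 2020.0, 2279.6, 2265 and 2127 with Dyngo-4a, 2780.3, 2695, 2572 and 2573 with prexasertib and 4250.0, 3995, 3844 and 3602 in the combination. Dyngo-4a libraries overlapped DMSO, prexasertib libraries lay above them without being called (0.28, adjusted p = 0.835), and the combination lay above all. The TOP2A interaction was 0.57 ± 0.12 (adjusted p = 0.0109). CDCA8, the borealin subunit of the chromosomal passenger complex (chromosome 1, 37692418 to 37709719), measured 132, 134, 144 and 131 CPM in DMSO, 105, 127, 112 and 126 with Dyngo-4a, 146, 146, 127 and 149.6 with prexasertib and 193, 189, 170.0 and 191 in the combination. The Dyngo-4a libraries of CDCA8 lay under all DMSO libraries and the combination above all 12 others. Its sum was -0.14 and its interaction 0.59 ± 0.13 (adjusted p = 0.0313). GTSE1, a microtubule-binding protein of mitosis (chromosome 22, 46296741 to 46330810), measured 124, 119, 137 and 118, 111, 113, 117 and 124, 124, 131, 142 and 117 and 191, 165, 188 and 159.7 CPM in the same order of groups. In GTSE1 both single drugs overlapped DMSO, and the interaction was 0.55 ± 0.13 (adjusted p = 0.0462). CEP70, a centrosomal protein, measured 0.86 ± 0.16 (adjusted p = 0.00401).

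In the mitosis list TOP2A was the called member of 33 (3 were called by DESeq2 and 14 with a block for replicate number), none was called below, 24 lay above and 0 below at an unadjusted p under 0.05, and all 33 values were positive, from 0.01 to 0.63 in UBE2C with a median of 0.39, except that 32 were positive with library sizes alone as scaling, with limma-voom and with the block. KIF2C, a kinesin that takes microtubules apart, measured 0.54 (adjusted p = 0.0633) and CENPE, a kinetochore kinesin, 0.52 (adjusted p = 0.123). FOXM1, the transcription factor of this programme, measured 0.05 in the combination against a sum of -0.50, an interaction of 0.55 (adjusted p = 0.167). In the combination against DMSO, 17 of the 33 were higher and 1 lower.

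Ribosome biogenesis genes mostly lay below the sum and replication genes on either side of it, with no call in the main fit. With the block for replicate number 1 gene of each list was called below. At an unadjusted p under 0.05, 12 ribosome biogenesis and 7 replication genes then lay below. Of 29 replication genes 0 were called in the interaction, 0 lay above and 4 below at an unadjusted p under 0.05 (0 below in replicates 2 and 4 alone), 9 values were positive and 20 negative, and the median was -0.07; in the combination against DMSO 16 of the 29 were lower and 0 higher. MCM4, a subunit of the replicative helicase, measured -0.42 (adjusted p = 0.309). CCNE2, the cyclin E2 of the E2F and RB list, measured -0.67 (adjusted p = 0.439). Of 24 ribosome biogenesis genes 0 were called, 0 lay above and 7 below at an unadjusted p under 0.05, 23 values were negative under each of the 3 scalings and the median was -0.26. The lowest p among them belonged to UTP20 (-0.40, adjusted p = 0.406), RRP1B (-0.32, adjusted p = 0.463) and NOP56 (-0.30, adjusted p = 0.55), all parts of ribosomal RNA processing.

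The 2 genes called below the sum were DTL and KCNK2. DTL, the substrate receptor of the ubiquitin ligase that degrades CDT1 and CDKN1A during S phase (chromosome 1, 212035553 to 212107400), measured 162, 165, 169 and 162 CPM in DMSO, 195, 186, 196 and 189 with Dyngo-4a, 143, 154, 154 and 151 with prexasertib and 124, 94.8, 109.6 and 107 in the combination. All Dyngo-4a libraries lay above DMSO, all prexasertib libraries lay below it, and the combination lay lower than either. The sum of 0.09 faced a combination value of -0.60 ± 0.09 (adjusted p = 1.04e-05), an interaction of -0.69 ± 0.13 (adjusted p = 0.00288). KCNK2, a background potassium channel (chromosome 1, 215005775 to 215237093), measured 53.9, 60.9, 51.4 and 57.3 CPM in DMSO, 70.4, 60.1, 59.5 and 67.8 with Dyngo-4a, 56.5, 64.7, 57.6 and 59.1 with prexasertib and 43.1, 33.6, 35.0 and 47.7 in the combination. Single-drug libraries of KCNK2 overlapped DMSO and the combination lay under all 12, with a sum of 0.30 and an interaction of -0.78 ± 0.16 (adjusted p = 0.0109).

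The next genes below the sum at a mean log2 CPM of at least 3, none called, were the uracil glycosylase UNG (-0.55, adjusted p = 0.0705), the adhesion molecule CLMP (-1.15, 0.0737), the mitochondrial carrier SFXN4 (-0.64, 0.0737), the RNA polymerase I subunit POLR1G (-0.55, 0.0942), MYCN (-0.50, 0.104) and the junctophilin JPH1 (-0.91, 0.133). MYCN, the amplified oncogene of this line, measured 1604, 1734, 1659 and 1943 CPM in DMSO, 1672, 1872, 1579 and 1806 with Dyngo-4a, 1698, 1972, 1666 and 1897 with prexasertib and 1151, 1279, 1205 and 1480.4 in the combination. All combination libraries of MYCN lay below all 12 others. Among 14 tested genes of the MYCN and MAX network list 1 was called above the sum and 0 below. In that list 7 values were positive and 7 negative, and the median was -0.07. MYCN was called with library sizes alone as scaling (adjusted p = 0.0273), without a low-count filter (0.0484), by DESeq2 (0.0182), with the block (8.58e-05), with a term setting replicates 1 and 3 apart from 2 and 4 (0.0021), and without DMSO replicate 4 (0.04997) or combination replicate 4 (0.0341). Its single effects were 0.00 and 0.06, the combination -0.44 ± 0.09 (adjusted p = 0.00159), and the 95% interval of the interaction -0.76 to -0.23. UNG measured 169, 162, 164 and 185 CPM in DMSO and 84.3, 94.2, 94.0 and 122 in the combination, with single-drug libraries between 145 and 166.

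ETV5 and CELF3 had negative values with Dyngo-4a alone that did not pass the test, and stood higher with both drugs. ETV5, an ETS factor downstream of receptor kinases (chromosome 3, 186046308 to 186110318), measured 8.37, 15.3, 8.26 and 6.404 CPM in DMSO, 4.96, 5.68, 2.83 and 5.82 with Dyngo-4a, 9.62, 9.50, 6.93 and 11.9 with prexasertib and 11.8, 19.5, 22.02 and 16.7 in the combination. Dyngo-4a libraries lay under all DMSO libraries, prexasertib libraries overlapped DMSO, and so did 1 combination library. The interaction of ETV5 was 1.81 ± 0.41 (adjusted p = 0.0446). Among 20 tested genes of the list of receptor kinases and MAPK feedback ETV5 was the called member. At an unadjusted p under 0.05, 3 of them lay above and 3 below, and the median was 0.08. CELF3, a neuronal splicing regulator (chromosome 1, 151702404 to 151716814), measured 88.1, 73.2, 66.3 and 76.4 CPM in DMSO, 63.9, 55.5, 54.9 and 48.7 with Dyngo-4a, 73.1, 63.9, 62.8 and 53.1 with prexasertib and 85.9, 104, 75.6 and 71.1 in the combination. Against DMSO the CELF3 combination value was 0.15 (adjusted p = 0.56), against single effects of -0.45 and -0.27, and its interaction was 0.87 ± 0.18 (adjusted p = 0.0111). KCNC4, a voltage-gated potassium channel, measured 1.44 ± 0.32 (adjusted p = 0.0313). The remaining protein-coding genes above the sum were the nuclear lamina gene LMNA (0.94), INKA2 (0.92) and the dehydrogenase DHRS2 (0.90).

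A few histone genes of low level were called above the sum, while the most abundant ones had values near 0 with wide errors. H4C5, a histone H4 gene (chromosome 6, 26204552 to 26206038), measured 1.52, 2.76, 1.81 and 3.52 CPM in DMSO, 2.37, 2.998, 0.218 and 1.45 with Dyngo-4a, 4.30, 3.54, 3.76 and 2.98 with prexasertib and 22.9, 21.7, 19.1 and 18.5 in the combination. 1 Dyngo-4a library lay under the limit that a count of 0 allows, and all combination libraries lay above the 12 others. The interaction was 2.90 ± 0.49 (adjusted p = 0.00128). H2BC8, a histone H2B gene (chromosome 6, 26215159 to 26216692), measured 4.19, 5.77, 6.05 and 6.08 CPM in DMSO, 5.18, 3.63, 5.23 and 6.54 with Dyngo-4a, 8.19, 9.87, 8.72 and 7.36 with prexasertib and 26.6, 28.9, 35.0 and 22.7 in the combination. The prexasertib libraries lay above DMSO and Dyngo-4a, and the interaction was 1.84 ± 0.30 (adjusted p = 0.00128). H2BC21 (1.97 ± 0.42, adjusted p = 0.0162) and H2BC5 (1.04 ± 0.24, adjusted p = 0.041) were also called. The 3 histone genes with the highest mean levels had small values that were not called, 0.02 ± 0.33 in H4C3, 0.14 ± 0.48 in the linker histone H1-2 and 0.18 ± 0.40 in H2AC14. Of 43 tested replication-dependent histone genes 4 were called above the sum, 19 lay above and 0 below at an unadjusted p under 0.05, and 41 values were positive (40 with library sizes alone as scaling) with a median of 0.99. Restricted to the 32 that passed the low-count filter without the combination libraries, 4 were called, 15 lay above and 30 were positive, with a median of 0.94.

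Summed over these genes, histone reads took 0.271% to 0.349% of the counts in DMSO, 0.235% to 0.374% with Dyngo-4a, 0.379% to 0.406% with prexasertib and 0.304% to 0.481% in the combination, so the combination overlapped every other group. Of 50 tested small nuclear RNA genes 3 were called above the sum, 13 lay above and 0 below at an unadjusted p under 0.05, and the median was 0.28. RNVU1-31 measured 2.47, 1.25, 1.61 and 3.68 CPM in DMSO, 3.67, 2.52, 1.09 and 1.27 with Dyngo-4a, 2.66, 2.61, 2.18 and 2.66 with prexasertib and 24.0, 23.8, 14.5 and 10.9 in the combination, an interaction of 2.97 ± 0.53 (adjusted p = 0.00287). RNVU1-28 measured 4.19, 4.51, 2.82 and 3.20, 1.51, 2.52, 0.654 and 0.182, 2.25, 5.96, 2.77 and 5.48 and 17.98, 22.6, 11.1 and 9.25 CPM in the same order of groups, an interaction of 3.37 ± 0.64 (adjusted p = 0.00847). In both copies the combination libraries lay above all 12 others, and the Dyngo-4a libraries of RNVU1-28 lay under DMSO. Of the latter, 0.654 and 0.182 CPM lay at or under the limit that a count of 0 allows (0.668 and 0.546 CPM in those libraries). Against DMSO RNVU1-28 measured -1.51 with Dyngo-4a and 2.06 in the combination, so its interaction rests partly on values near that limit. The U6 copy RNU6-11P measured 1.41 ± 0.32 (adjusted p = 0.0405). Small nuclear RNA took 0.095% to 0.158% of the counts in DMSO, 0.097% to 0.186% with Dyngo-4a, 0.125% to 0.186% with prexasertib and 0.125% to 0.217% in the combination. U1, U6 and most histone transcripts normally carry no poly(A) tail, and the part of tail length or priming in these values was not tested.

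The remaining 2 called genes have no symbol in the reference. ENSG00000279602 (chromosome 17, 43360041 to 43361361), annotated as unconfirmed by experiment, had an interaction of 1.93 ± 0.35 (adjusted p = 0.00287). ENSG00000251095 (chromosome 4, 89551356 to 89726752), annotated as antisense, had one of 2.98 ± 0.64 (adjusted p = 0.0185); the sources used here do not give the strand setting of the counting, so its reads are uncertain. At the edge of the call, ATF3 and GTSE1 (both 0.0462) and DHRS2 (0.0467) lay just inside the threshold, and the histone gene H4C4 (0.0563), the small nuclear RNA pseudogene RNU5A-8P and the endothelial regulator APOLD1 (both 0.0571) just outside.

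The drug targets and their partners stood near the sum. CHEK1, which encodes CHK1 (chromosome 11, 125625136 to 125676255), measured 32.1 ± 4.11 CPM in DMSO and 33.1 ± 4.97 in the combination (SD, n = 4), with an interaction of -0.17 (95% interval -0.61 to 0.27). MUS81 (chromosome 11, 65857126 to 65867653) measured 52.7 ± 6.80 and 47.3 ± 3.20 CPM, with an interaction of -0.06 (-0.37 to 0.26). EME1 measured 0.29 (-0.15 to 0.73), DNM1 0.05 (-0.51 to 0.61), DNM2 0.13 (-0.17 to 0.43) and DNM3 0.14 (-0.64 to 0.92). None of these 6 was called, and intervals of this width leave room for differences of up to the bounds given. Of 28 tested dynamin and endocytosis genes, 20 ATR and CHK1 checkpoint genes, 17 fork nuclease genes and 19 Fanconi and recombination genes, 0 were called in the interaction. At an unadjusted p under 0.05 the checkpoint list had 2 above and 0 below, the fork nucleases 0 above and 1 below (RBBP8, -0.35), and the other 2 lists 0 either way.

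A difference on the log scale is a ratio on the linear scale, so the direction was also taken from mean CPM. All 39 genes had the same direction on both scales. Both scales use the libraries on which the genes were chosen, so this was largely fixed in advance and adds no support. Within replicates 1 and 3 alone 30 genes were called, 18 of the 39 among them, and within replicates 2 and 4 alone only CDKN1A was called and 0 of the 39, with 2 libraries per group in each subset. The direction was the same in both subsets for all 39. These genes were chosen on all replicates together, so this was largely fixed in advance and adds no support. Median sizes were 1.18 in replicates 1 and 3 and 1.08 in replicates 2 and 4. The arrest list had 19 of 19 values positive in each subset and the mitosis list 31 and 32 of 33, while the median of the small nuclear RNA genes was 0.41 and 0.02 and that of the immediate early genes 0.60 and 0.33. For example HSPA1B measured 1.34 and 1.27, HEXIM1 0.89 and 1.01, STK17A 1.68 and 1.12, and DTL -0.58 and -0.79. The widest gaps included RNVU1-28 (4.20 and 2.87), H2BC21 (1.31 and 2.698) and DHRS2 (0.52 and 1.28).

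**Figure D4:**
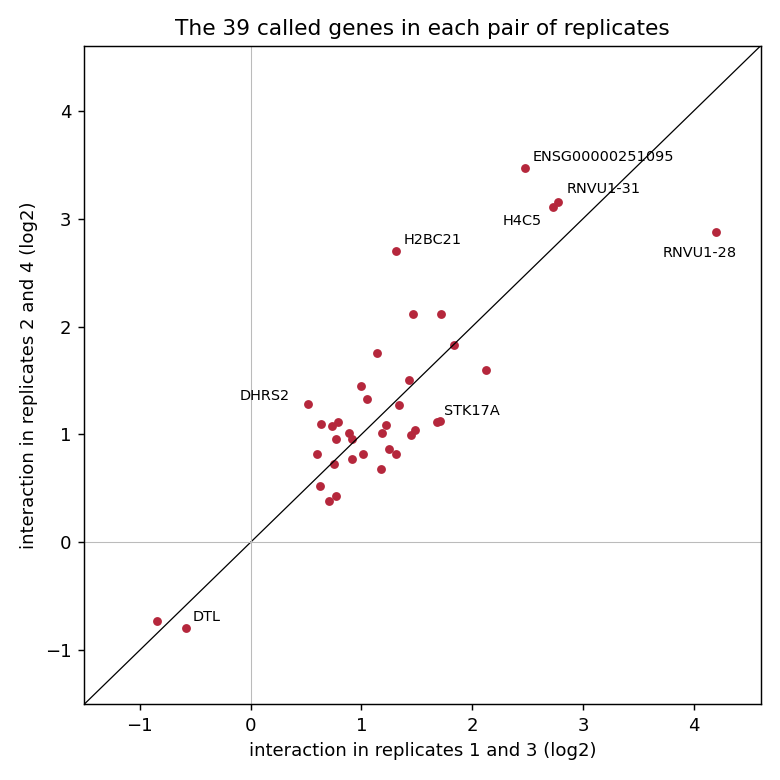
Interaction (log2) of the 39 called genes fitted in replicates 1 and 3 alone (horizontal) and in replicates 2 and 4 alone (vertical), with the line of equal values. All points lie in the lower left or upper right part, 20 with the larger size in replicates 1 and 3 and 19 in replicates 2 and 4. The genes were chosen on all replicates together, which favours the same sign in both subsets.

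When each of the 16 libraries was left out in turn, 25 of the 39 genes were called every time. All kept their direction, which the libraries shared with the main fit favour. The 14 others each lost the call at least once. TOP2A lost it without low-dose replicate 1 (adjusted p = 0.0521) and KCNK2 without combination replicate 2 (0.0557). H2BC21 lost it without low-dose replicate 4, prexasertib replicate 4 or combination replicate 1 (adjusted p up to 0.0717). IER5 lost it without DMSO replicate 2, low-dose replicate 3, prexasertib replicates 3 and 4 or combination replicate 2 (up to 0.0713). ENSG00000251095 lost it without DMSO replicates 2, 3 and 4, low-dose replicate 3 or prexasertib replicates 2 and 4 (up to 0.0972). FDXR lost it without DMSO replicates 1 and 4, low-dose replicates 3 and 4, prexasertib replicates 1, 2 and 3 or combination replicates 1 and 3 (up to 0.11). CDCA8 lost it without DMSO replicates 2 and 3, low-dose replicates 1 and 3, prexasertib replicates 1, 2 and 3 or combination replicates 1 and 2 (up to 0.123). KCNC4 lost it without DMSO replicates 2 and 3, low-dose replicates 2, 3 and 4, prexasertib replicates 3 and 4 or combination replicates 1 and 2 (up to 0.102). RNU6-11P lost it without DMSO replicates 3 and 4, low-dose replicates 2 and 3, prexasertib replicates 1, 3 and 4 or combination replicates 1 and 3 (up to 0.152). The call of H2BC5 went without DMSO replicates 1 and 2, low-dose replicates 1, 2 and 3, prexasertib replicates 1, 2, 3 and 4 or combination replicates 1, 2 and 3 (up to 0.153), and that of ETV5 without DMSO replicates 1, 2 and 3, low-dose replicates 1, 2, 3 and 4, prexasertib replicates 1, 2 and 3 or combination replicates 2 and 3 (up to 0.129). For ATF3 the libraries were DMSO replicates 2, 3 and 4, low-dose replicates 1, 3 and 4, prexasertib replicates 3 and 4 or combination replicates 1 and 3 (up to 0.144). GTSE1 lost the call without DMSO replicates 1, 2 and 3, low-dose replicates 1, 2 and 3, prexasertib replicates 1, 2 and 4 or combination replicates 1 and 3 (up to 0.136), and DHRS2 without DMSO replicates 2 and 3, low-dose replicates 2, 3 and 4, prexasertib replicates 1, 2 and 4 or combination replicates 2 and 3 (up to 0.144).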

How the data were processed

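The authors made 3′ mRNA libraries (QuantSeq, with molecular barcodes) from IMR-32 cells and sequenced them as single-end reads, per the labels' protocols. The deposited values were raw counts per gene by Ensembl identifier for 58787 genes. FastQC 0.11.7, STAR 2.7.2b, edgeR 3.36.0, limma 3.50.3 and the build GRCh38 are named in the submitters' processing notes. The sources used here do not give the annotation, strand setting or barcode collapsing.

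Groups came from the labels. Of the 58787 genes, 13729 passed filterByExpr (minimum count 10, minimum total 15), holding 99.6% to 99.8% of the counts, and 802 of them had no symbol. GENCODE 29 held 58515 identifiers and gave coordinates. TMM factors ran from 0.968 to 1.03. All 20 libraries entered one group-means model in edgeR 4.0.16 (R 4.3.3; robust quasi-likelihood fit with 15 residual degrees of freedom and 12.5% common biological coefficient of variation), two-sided, with a threshold of 0.05. The median half-width of a 95% interval of the interaction was 0.47. The script was tested on simulated data. Within each group of the interaction no 2 libraries were copies: their chi-square per degree of freedom was at least 3.01.

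The members and the 24 gene lists were chosen with earlier results of these data known. Named genes were the 14 called genes with the largest positive interaction and, with few called below, the 8 negative ones with the lowest p, at a mean log2 CPM of at least 3, up to 3 members per list by p, and MYCN, CDKN1A, CHEK1, EME1, MUS81 and the 3 dynamin genes DNM1 to DNM3. The other called genes, MALAT1, UBE2C, POLR1C, H4C3, H1-2, H2AC14, FOXM1, SESN1, EDA2R and the genes at the edge of the call were named after their values were seen. Alternatives were other scaling, filters, DESeq2 1.42.0, limma-voom (limma 3.58.1), fewer groups, a replicate block, replicate subsets and leaving out each library. Deviations of same-numbered libraries correlated over 0.1 in all 4 pairs for each comparison of groups except DMSO with the combination (lowest 0.0274). The group-means model left the replicate number out of every comparison, and the block was run as an alternative only. Promoter sequences are from RefSeq (GRCh38.p14) and transcripts from GENCODE 29. HSPA1A had too few counts to be tested.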

Additional observations from a re-analysis of the deposited data

Results flagged for a closer look

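If the combination held the doses given singly, prexasertib had a different effect with and without Dyngo-4a in 39 genes by the interaction test of edgeR, the genes described above. Among 176 groups of 4 libraries (44 genes in 4 groups), 5 held a library far from the other 3 by Dixon's criterion, 2.84% where chance gives about 1 in 20. These were HEXIM1 in prexasertib replicate 1 (91.3 CPM), H2BC8 in DMSO replicate 1 (4.19 CPM), RNVU1-31 in prexasertib replicate 3 (2.18 CPM), ENSG00000251095 in prexasertib replicate 3 (2.97 CPM) and CDCA8 in combination replicate 3 (170 CPM). All 5 genes were still called with the named library left out.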

How the results depend on the processing

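All 39 called genes kept their direction under each of the 27 alternatives run. They were chosen by the main fit, whose libraries the alternatives share, so this was largely fixed in advance. The interaction count of 39 fell to 31 with limma-voom (30 of the 39 kept) and 34 with library sizes alone (32 kept), and was 40 without the high-dose group (36 kept). FDXR, KCNC4, ATF3, GTSE1, DHRS2, H2BC5 and RNU6-11P lost the call with both limma-voom and library sizes alone, ETV5 and ENSG00000251095 with limma-voom, RNU6-11P, ATF3 and DHRS2 also without the high-dose group, and GTSE1 also without a low-count filter. The count became 65 without a low-count filter, 72 with DESeq2, 167 with the replicate number as a block (131 above and 36 below, all 39 among them, with 9 of 19 arrest, 14 of 33 mitosis and 10 of 43 histone genes above), 93 with a term for replicates 1 and 3 against 2 and 4, 1 with replicates 2 and 4 alone, and 29 to 57 when each library was left out. The main fit left the replicate number out. Yet 23 of 24 same-numbered pairs correlated over 0.1 and 22 correlated best with their own number, so the count of 39 ignores a likely pairing. For the combination against DMSO, 865 became 1976 with the block, 1427 with the term and 221 with replicates 2 and 4 alone (594 to 861 leaving out a library). For 1 µM Dyngo-4a, 36 became 62 without a filter, 260 with the block, 73 with the term and 4 with replicates 2 and 4 alone (14 to 30 leaving out a library, and 22 in the absence of DMSO replicate 2 or 4, and 18 and 14 in that of low-dose replicates 1 and 3). For prexasertib, 0 became 12 without a filter, 6 with DESeq2, 23 with the block, 4 with the term and 5 with replicates 1 and 3 alone (0 to 2 leaving out a library). For the combination against the low dose, 528 became 1149 with the block, 829 with the term and 143 with replicates 2 and 4 alone (386 to 497). For the combination against prexasertib, 472 became 1374, 909 and 104 in the same order (309 to 474, the lowest without combination replicate 1). The subsets have fewer libraries, and the cause of the other shifts was not tested. Of uncalled genes, CHEK1 turned to 0.11 and DNM1 to -0.051 in replicates 1 and 3 alone, while in replicates 2 and 4 alone DNM3 turned to -0.12, H4C3 to -0.24, H1-2 to -0.13 and H2AC14 to -0.10. H4C3 measured -0.0044 with library sizes alone. Leaving out a library, MUS81 ran from -0.13 to 0.016, DNM1 from -0.090 to 0.22, DNM3 from -0.17 to 0.30, H4C3 from -0.13 to 0.18, H1-2 from -0.12 to 0.32 and H2AC14 from -0.099 to 0.35. The median half-width of a 95% interval was 0.47, which belongs to an unadjusted p, and the smallest called interaction was 0.55 in size, so smaller ones were not called at this depth and spread.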
